A study of Mus musculus with 2 samples.

Results

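Granzymes, perforin and the granule membrane protein Nkg7 were followed across the cells of RM-1 mouse prostate tumors in 10 genes (Gzma, Gzmb, Gzmc, Gzmd, Gzme, Gzmf, Gzmg, Gzmk, Prf1 and Nkg7), chosen by name out of the 32285 genes counted. RM-1 is a prostate cancer line of the mouse that resists enzalutamide (ENZ), a blocker of the androgen receptor, and the tumors had been grown in the prostates of wild-type C57BL/6 mice with their own immune system. The tumor labelled control came from a mouse given vehicle and the tumor labelled ENZ from a mouse given enzalutamide, and both carried the same RM-1 cells. Each condition is 1 mouse and 1 droplet library of single cells, in which immune cells had been enriched with an isolation kit and CD45 staining. Because there is 1 library per condition, no test between conditions was possible, and the effect of the drug cannot be told apart from the difference between any 2 mice or libraries.

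Cytotoxic lymphocytes, that is, natural killer (NK) cells and CD8 T cells, store perforin and granzymes in secretory granules and release them at the contact with a target cell. Perforin (Prf1) opens pores in the target membrane, and granzymes, which are serine proteases, enter through these pores. Granzyme B (Gzmb) cuts after aspartate and starts apoptosis through caspases, granzymes A and K (Gzma, Gzmk) are tryptases, and the rodent granzymes C to G (Gzmc to Gzmg) form a family of close relatives of which less is known. Nkg7 is a protein of the granule membrane that takes part in granule release. Regulatory T cells, which restrain other T cells, and mast cells and basophils can also make Gzmb.

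The 6 genes Gzmb, Gzmc, Gzmf, Gzmg, Gzmd and Gzme lie in this order, read on the minus strand, in a cluster on chromosome 14 between positions 56117626 and 56262260 (GRCm38). Gzma and Gzmk are neighbours on the minus strand of chromosome 13, at 113093825 to 113100981 and 113171608 to 113225908. Prf1 is on the plus strand of chromosome 10 at 61297833 to 61304680, and Nkg7 on the plus strand of chromosome 7 at 43437073 to 43438249. The transcripts of Gzmd and Gzme were 90% identical and those of Gzme and Gzmg 88.1%, so reads could be split between these copies. However, at most 2.17% of the 90-base windows of any granzyme transcript had an exact match in another granzyme transcript. Gzmk overlaps Esm1, and Gzmf overlaps Gm4022, on the opposite strand, and whether counting used strand was not given in the sources used here.

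The promoters of the 6 clustered genes and of Prf1 are shown because these 7 genes were the ones more than 1.5-fold apart between the libraries in NK cells. Each is the 300 bases from 250 before to 50 after the RefSeq start (GRCm38.p6), read 5′ to 3′ on the gene's strand. Capitals mark matches to the RUNX letters TGTGGT, the AP-1 letters TGANTCA and the STAT letters TTCNNNGAA, on either strand. The windows are chr14:56234608-56234907, chr14:56132544-56132843, chr14:56120576-56120875, chr14:56211358-56211657, chr14:56159530-56159829 and chr14:56262285-56262584 on the minus strand, and chr10:61297586-61297885 on the plus strand.
Gzmc: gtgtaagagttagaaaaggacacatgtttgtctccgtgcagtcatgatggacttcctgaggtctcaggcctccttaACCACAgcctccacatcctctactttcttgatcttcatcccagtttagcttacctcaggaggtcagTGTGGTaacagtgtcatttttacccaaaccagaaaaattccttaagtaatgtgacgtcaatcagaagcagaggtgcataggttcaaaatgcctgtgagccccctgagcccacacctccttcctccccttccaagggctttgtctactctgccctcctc
Gzmd: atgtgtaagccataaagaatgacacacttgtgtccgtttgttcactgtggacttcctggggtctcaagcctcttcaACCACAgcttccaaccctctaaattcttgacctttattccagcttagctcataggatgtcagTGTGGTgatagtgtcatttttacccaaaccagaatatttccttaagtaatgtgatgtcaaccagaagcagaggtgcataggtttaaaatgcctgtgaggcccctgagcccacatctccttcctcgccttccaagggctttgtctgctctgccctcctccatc
Gzme: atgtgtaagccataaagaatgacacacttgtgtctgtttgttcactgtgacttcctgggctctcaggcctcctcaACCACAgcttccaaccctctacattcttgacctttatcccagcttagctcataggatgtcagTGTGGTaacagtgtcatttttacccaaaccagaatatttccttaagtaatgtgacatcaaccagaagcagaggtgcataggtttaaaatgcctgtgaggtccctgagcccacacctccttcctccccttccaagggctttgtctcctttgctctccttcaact
Gzmf: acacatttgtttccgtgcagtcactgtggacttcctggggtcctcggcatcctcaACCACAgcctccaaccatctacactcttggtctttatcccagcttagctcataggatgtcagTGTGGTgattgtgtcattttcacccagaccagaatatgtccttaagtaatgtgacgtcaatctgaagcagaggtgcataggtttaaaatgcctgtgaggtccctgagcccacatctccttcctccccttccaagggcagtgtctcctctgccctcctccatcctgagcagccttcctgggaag
Gzmg: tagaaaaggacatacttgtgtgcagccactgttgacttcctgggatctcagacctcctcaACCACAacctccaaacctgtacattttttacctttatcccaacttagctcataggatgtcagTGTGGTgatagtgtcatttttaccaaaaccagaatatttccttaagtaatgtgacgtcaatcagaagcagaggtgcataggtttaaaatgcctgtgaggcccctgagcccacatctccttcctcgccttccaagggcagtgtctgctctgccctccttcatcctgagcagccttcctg
Gzmb: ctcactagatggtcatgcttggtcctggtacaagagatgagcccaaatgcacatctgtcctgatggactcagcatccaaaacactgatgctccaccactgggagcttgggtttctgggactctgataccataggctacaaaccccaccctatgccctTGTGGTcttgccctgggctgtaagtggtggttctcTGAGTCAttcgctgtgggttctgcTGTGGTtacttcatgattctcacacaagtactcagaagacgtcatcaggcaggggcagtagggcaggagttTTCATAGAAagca
Prf1: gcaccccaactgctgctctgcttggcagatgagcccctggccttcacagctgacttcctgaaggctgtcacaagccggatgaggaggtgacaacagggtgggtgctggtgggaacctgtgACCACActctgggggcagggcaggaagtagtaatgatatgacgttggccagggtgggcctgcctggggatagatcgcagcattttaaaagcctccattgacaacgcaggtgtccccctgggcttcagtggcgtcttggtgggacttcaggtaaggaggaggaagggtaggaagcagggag

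All 10 genes had a RefSeq promoter. The RUNX letters stood in 9 of the 10, Gzmk being the exception, against 16.8% of all 32851 promoters of this length. Promoters with at least 2 such matches were those of the 6 clustered genes, whereas 1.81% of all promoters had as many. In Gzmc to Gzmg both matches lay in the same arrangement, 1 on each strand, and these promoters were alike in sequence beyond them, with 93.4% identity between Gzmd and Gzme and 73.5% between Gzmc and Gzmf. The Gzmb promoter was 43.6% to 48.0% identical to these, carried both matches on its own strand, and was the only one of the 10 with the AP-1 letters (7.81% of all promoters). The STAT letters were in Gzmb and Nkg7 (8.30% of all promoters), and the T-box letters GGTGTGA in Gzmk and Nkg7 (3.98%). The letters TATAAA were in none of the 10 windows (13.6%). A match of letters does not show that a factor binds there.

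The control library held 170830346 UMIs (unique molecular identifiers, each standing for 1 captured RNA molecule) and the ENZ library 162030149. Barcodes with at least 1000 UMIs and at most 20% mitochondrial UMIs were taken as cells, 12253 in the control library and 10271 in the ENZ library. NK cells (at least 2 UMIs of Ncr1, Klrb1c and Klre1, at most 1 of Cd3d and Cd3e) numbered 449 control and 169 ENZ cells, CD8 T cells (at least 2 UMIs of Cd3d, Cd3e and Cd3g and 1 of Cd8a or Cd8b1) 128 and 185, and regulatory T cells (the same Cd3 minimum and 1 Foxp3 UMI) 57 and 94. These numbers follow the enrichment of immune cells as well as the tumors. All 6 further NK markers were detected in both libraries (summed, 1032 CPM in control and 1255 in ENZ), as were all 5 of T cells in the CD8 class and all 5 of regulatory T cells in the Foxp3 class. The T cell markers summed to 839 CPM in control and 1160 CPM in ENZ CD8 T cells (1.38 times). Those of regulatory T cells summed to 1971 and 2798 CPM (1.42 times). How far differences of other genes in these classes follow these rises was not tested. Trac, which encodes the T cell receptor alpha chain, was found in 6.24% of control and 3.55% of ENZ NK cells, while 78.6% and 78.7% had a UMI of Trac or of the beta chain genes, whose constant part NK cells can also transcribe. Between the libraries 39 cell barcodes were shared, none of them in the same class.

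**Figure D1:**
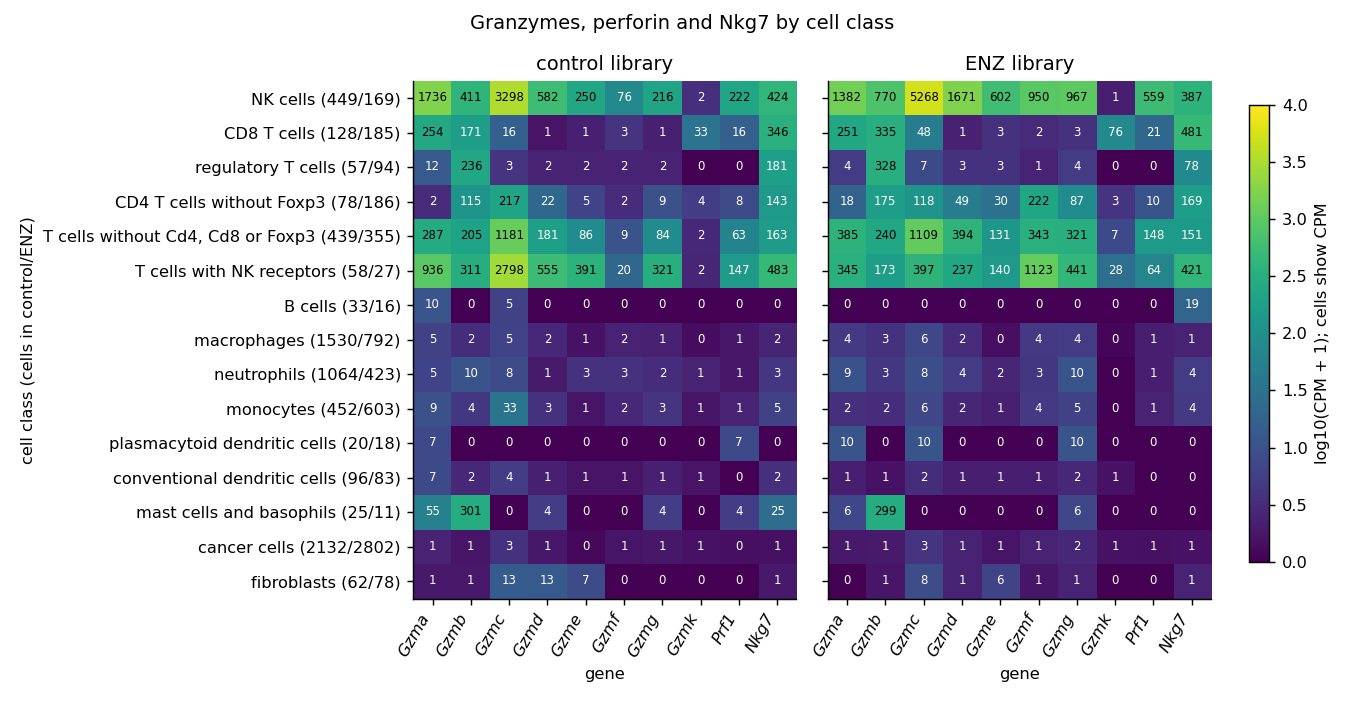
Level of each of the 10 genes in 15 cell classes of each library, as CPM (UMIs of the gene per 1000000 UMIs of the class, printed in each field) with colour on a log10(CPM + 1) scale. NK cells held the highest levels of Gzma and of Gzmc in both libraries, and Gzmb was also present in CD8 T cells, regulatory T cells, and mast cells and basophils.

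Levels are given as CPM, the UMIs of a gene per 1000000 UMIs of all cells of a class in a library, with exact Poisson 95% intervals; ratios have exact conditional binomial 95% intervals. These intervals cover counting error only, not the spread between mice, and they are too narrow because UMIs of the same cell are not independent. The 6 T and NK classes together held 57.7% to 89.0% of the UMIs of each gene in the control library, Gzmk aside (48.8%), and 61.6% to 87.5% in the ENZ library. NK cells alone held 73.5% of the control and 81.1% of the ENZ Gzmc UMIs, and 68.6% and 75.1% of the Prf1 UMIs. CD8 T cells held the largest part of Gzmk, 33.8% of its UMIs in control and 51.6% in ENZ. In cells that should lack these genes (cancer cells and macrophages), the share with a UMI after thinning every cell to 1000 UMIs was at most 0.758% for each of the 10 genes, with median depths of 25467 and 25037 UMIs in cancer cells and 7988 and 6973 in macrophages before thinning. Among 33 control B cells, 1 had a UMI of Gzmc (3.03%). Some shares were higher in neutrophils, whose median depths were 2150 UMIs in control and 2218 in ENZ. They reached 1.41% for Gzmc in control and 1.65% for Gzmg in ENZ. Of 78 ENZ fibroblasts, 2 had a UMI of Gzmc (2.56%).

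In NK cells the perforin gene and most granzyme genes stood higher in the ENZ tumor, whereas Gzma and Nkg7 did not. Of the 9 genes with at least 50 CPM over both libraries, 7 were at least 1.5 times higher in ENZ and 0 at least 1.5 times lower, and Gzmk was below 50 CPM. Among all 3305 genes at that level in NK cells, 4.15% were at least 1.5 times higher and 4.42% at least 1.5 times lower. The median log2 ratio of the 9 genes was 1.27, against 0.05 over the 3305 genes. These 7 genes are not independent of each other. As given below, Gzmd to Gzmg rested on few cells, and Gzmb and Gzmc were under 1.5-fold when every cell was weighted equally. Summed, the 10 genes made up 7216 CPM in control and 12558 CPM in ENZ NK cells, a ratio of 1.74 (1.71 to 1.77).

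Prf1 stood at 222 CPM (208 to 236) in control and 559 CPM (523 to 596) in ENZ NK cells, a ratio of 2.52 (2.30 to 2.76). Gzmb stood at 411 CPM (392 to 430) and 770 CPM (729 to 813), a ratio of 1.88. Weighting every cell equally, by the mean of the CPM of each cell, left the log2 ratio of Prf1 at 0.83 and that of Gzmb at 0.40, the latter under the 1.5-fold mark.

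Gzmc had more UMIs than any other of the 10 genes in NK cells, with 3298 CPM in control and 5268 CPM in ENZ (ratio 1.60, 1.56 to 1.64). Gzmd went from 582 to 1671 CPM between control and ENZ, a ratio of 2.87 (2.72 to 3.03), and Gzme from 250 to 602 CPM, a ratio of 2.41 (2.21 to 2.63). The ratio was larger for Gzmg, at 216 and 967 CPM (4.48, 4.14 to 4.86), and largest for Gzmf, at 76.2 and 950 CPM (12.5, 11.1 to 14.1). In barcodes with 100 UMIs or fewer, which hold free RNA rather than cells, Gzmf stood at 56.9 CPM (control) and 72.0 CPM (ENZ). By an upper estimate from Krt8, Krt18, S100a8 and S100a9, free RNA was 27.8% of control and 27.4% of ENZ NK cell UMIs. A CPM of free RNA is therefore not directly comparable with a CPM of these cells. Without the NK cell with the most Gzmf UMIs in each library, the gene stood at 15.4 CPM in control and 535 CPM in ENZ. These 15.4 CPM lie below the 56.9 CPM of free RNA in control. How much of them is free RNA was not tested, so the size of a ratio to this level is uncertain. Without the top cell of Gzmc its log2 ratio was 0.57 in place of 0.68, and by the mean of the CPM of each cell it was 0.28, both under the 1.5-fold mark.

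Gzma, in contrast, was lower in ENZ NK cells, with 1736 CPM (1697 to 1775) in control and 1382 CPM (1326 to 1440) in ENZ, a ratio of 0.796. Nkg7 stood at 424 CPM in control and 387 CPM in ENZ (ratio 0.913, 0.834 to 0.999). Both were within 1.5-fold. Gzmk was barely detected, with 11 UMIs in control and 2 in ENZ NK cells. These were 2.49 and 1.20 CPM, against 1.04 and 0.827 CPM in free RNA.

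**Figure D2:**
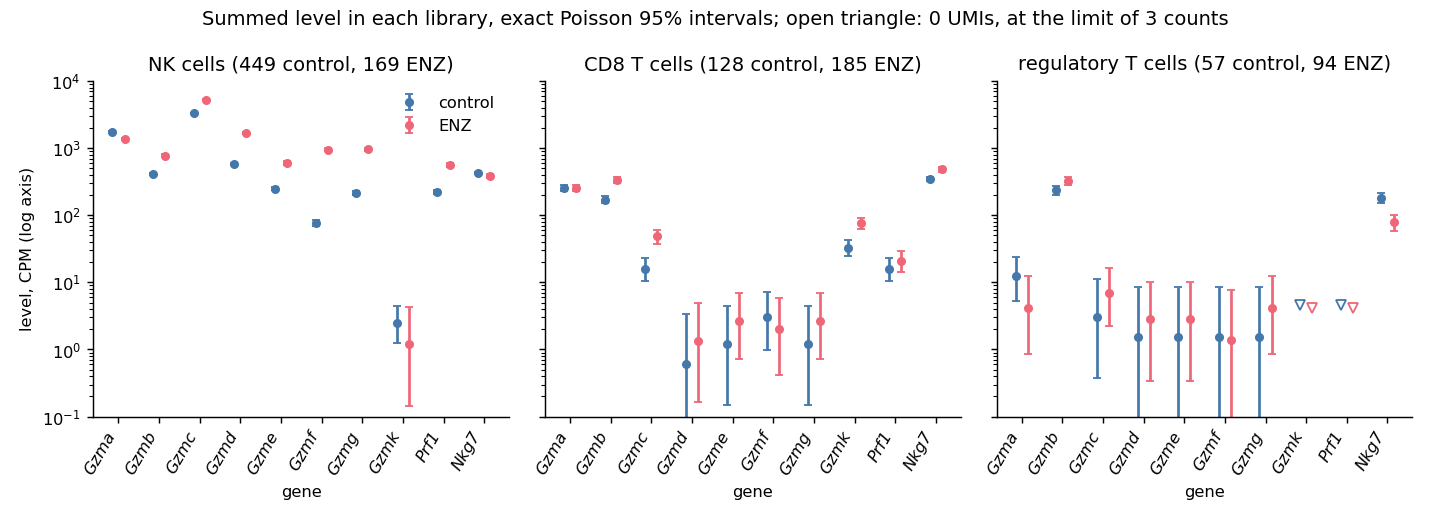
Level of each gene (CPM, log axis) in NK cells, CD8 T cells and regulatory T cells of the control (blue) and ENZ (red) library. Points are 1 library each, bars are exact Poisson 95% intervals for counting error only, and open triangles stand for 0 UMIs, drawn at the level of 3 counts. In NK cells 7 genes lie higher in ENZ by at least 1.5-fold, with Gzma and Nkg7 lower by less than that.

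Markers of other cells were also present in these cells and moved between the libraries. The 5 myeloid markers (Lyz2, Cd68, C1qa, S100a8, S100a9) summed to 925 CPM in control and 337 CPM in ENZ NK cells, the 3 epithelial markers (Krt8, Krt18, Epcam) to 364 CPM in both, and the B cell marker Ms4a1 was at 0. Without the cells that carried UMIs of another lineage, 376 control and 144 ENZ NK cells remained, and the log2 ratios of Prf1, Gzmb and Gzmf were 1.11, 0.91 and 3.36. When classes were drawn instead after thinning every cell to 1000 UMIs, only 92 control and 24 ENZ NK cells met the rule. In these, Gzmd, Gzme and Prf1 stayed higher in ENZ (log2 ratios 1.31, 1.35 and 0.99), Gzmb stood at 0.05, and Gzmc and Gzmg turned, to -0.10 and -1.06.

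In NK cells thinned to 1000 UMIs, the shares with Gzmb, Gzmc or Prf1 did not separate the libraries beyond counting error. After thinning to 1000 UMIs per cell, Gzmb was seen in 24.1% of control (20.2 to 28.3, Clopper-Pearson 95% interval) and 27.8% of ENZ NK cells (21.2 to 35.2), and Gzmc in 33.9% and 41.4%. Prf1 was seen in 18.7% and 22.5%. For these 3 genes the interval of the difference included 0, at -4.09 to 12.1, -1.23 to 16.5 and -3.44 to 11.6 percentage points. Before thinning, Gzmb was found in 59.5% of control and 56.2% of ENZ NK cells, and Prf1 in 49.4% and 59.8%. With cells thinned to 2000 UMIs instead, the Prf1 difference was 9.01 percentage points (0.270 to 18.0). The intervals of Gzmb and Gzmc still included 0 at that depth.

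At the smaller of these thinning depths, shares differed by more than counting error for Gzma, Gzmf and Gzmg. Gzma was seen in 58.1% of control and 46.2% of ENZ NK cells, a difference of -12.0 percentage points (-20.9 to -2.84). Gzmf was seen in 6 of 449 control cells (1.34%) and 10 of 169 ENZ cells (5.92%), and Gzmg in 9 and 13, a difference of 5.69 percentage points (1.74 to 10.9). In neutrophils Gzmf was seen in 0.846% of control and 0.946% of ENZ cells, and Gzmg in 0.564% and 1.65%. Cells with Gzmc and no Gzma UMI made up 14.3% of control and 23.1% of ENZ NK cells, whereas those with Gzma and no Gzmc UMI made up 38.5% and 27.8%. At least 1 of the 8 granzymes was seen in 75.1% and 70.4%.

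**Figure D3:**
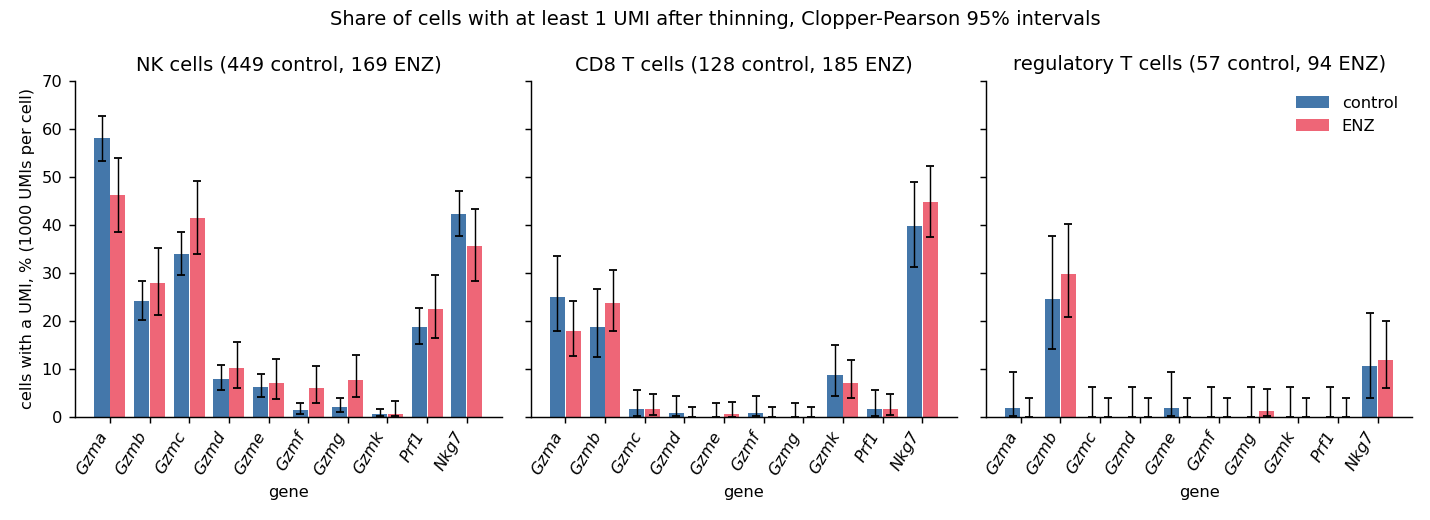
Share of cells with at least 1 UMI of each gene after thinning every cell to 1000 UMIs, for NK cells, CD8 T cells and regulatory T cells of the control (blue) and ENZ (red) library, with Clopper-Pearson 95% intervals. In NK cells the bars of Gzma stand at 58.1% and 46.2% and those of Gzmf at 1.34% and 5.92%. Among NK cells the intervals of the 2 libraries lie apart for Gzmg alone (0.921 to 3.77 and 4.16 to 12.8).

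The levels of Gzmd to Gzmg rested on few NK cells. Of the control cells 54 had a Gzmd UMI and 19 a Gzmf UMI, and of the ENZ cells 27 and 19. A single control cell held 269 of the 337 Gzmf UMIs (79.8%), and a single ENZ cell held 709 of 1589 (44.6%). The latter cell also met the rule for T cells without Cd4, Cd8 or Foxp3 UMIs. Cells with at least 20 UMIs of Gzmd, Gzme, Gzmf and Gzmg together numbered 28 of 449 in control (6.24%, 4.18 to 8.89) and 15 of 169 in ENZ (8.88%, 5.05 to 14.2), and they held 96.8% and 98.8% of all UMIs of the 4 genes. Gzmc and Prf1 were found in every such cell of both libraries, Gzma in 22 of the 28 and 9 of the 15, and Klrg1 in 28 and 11. These cells were deeper than the rest, with a median of 14358.5 UMIs against 5040 in control and 19569 against 5196.5 in ENZ, and 6 and 3 of them carried UMIs of another lineage.

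Nkg7 was spread over more cells, with 31.5% of its control and 34.2% of its ENZ UMIs in the 10% of NK cells that had the most of it. The 10% of cells with the most UMIs of each gene, chosen anew for every gene, held 49.9% and 60.3% of the Gzma UMIs, 67.7% and 78.7% of the Gzmb UMIs, 77.4% and 79.9% of the Gzmc UMIs and 65.0% and 75.2% of the Prf1 UMIs. For these 5 genes the part held by the top cells was higher in ENZ, and for Gzmd, Gzme, Gzmf and Gzmg it was 99.3% to 100% in both libraries. A single ENZ cell held 22.2% of the Gzmb UMIs, and without the top cell of each library the Gzmb log2 ratio was 0.69 in place of 0.91.

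Across single NK cells thinned to 1000 UMIs, Gzmd went together with Gzme (Spearman rho 0.80 over 449 control and 0.84 over 169 ENZ cells) and less closely with Gzmc (0.48 and 0.56). Gzmg followed Gzmd with rho 0.45 in control and 0.81 in ENZ. Gzma was unrelated to Gzmc, at -0.05 and -0.04, and was weakly related to Nkg7 (0.30 and 0.22). These values describe cells of a single library each, which share depth and free RNA, and Gzmd and Gzme share sequence.

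**Figure D4:**
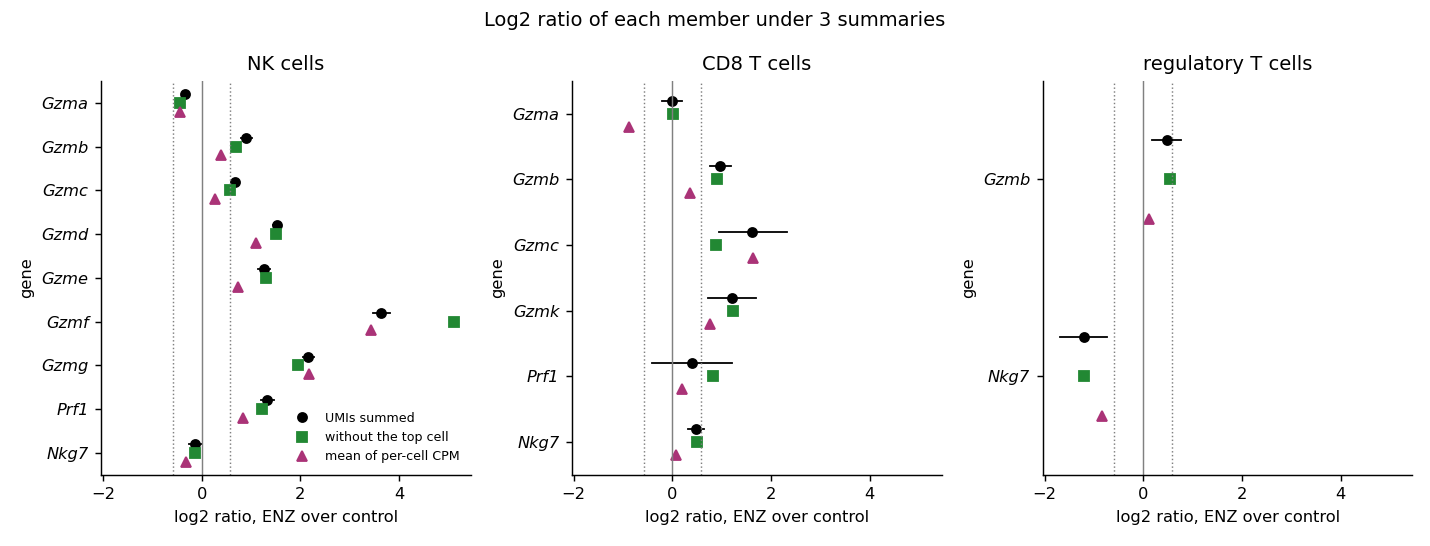
Log2 ratio of ENZ over control for each gene in the 3 classes, from the summed UMIs (black, with the 95% counting interval), without the cell of each library with the most UMIs of that gene (green) and from the mean of the CPM of each cell (purple). Dotted lines mark 1.5-fold in either direction. In NK cells Gzmd, Gzme, Gzmf, Gzmg and Prf1 stay right of the dotted line in all 3 summaries, while Gzmb and Gzmc cross it.

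NK cells in different states differed in their granzymes within each library. In control cells with a UMI of Klrg1, a receptor of mature NK cells, Gzmc stood at 7227 CPM against 803 CPM without (8.99 times higher), and in ENZ cells at 13282 against 1277 CPM (10.4 times). Prf1 was 4.46 times higher with Klrg1 in control and 7.71 times in ENZ, Gzmb 3.76 and 6.91 times, and Gzma 1.34 and 1.76 times. Nkg7 differed little, at 1.03 and 1.42 times. Cells with Klrg1 made up 28.1% of control and 24.3% of ENZ NK cells and were deeper, with a median of 9562.5 against 4492 UMIs in control and 10325 against 4820.5 in ENZ.

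Split by Klrg1, Prf1, Gzmb and Gzmc stood higher in ENZ both with and without it. Among NK cells with Klrg1, ENZ stood over control by 3.16 times in Prf1, 2.41 in Gzmb and 1.84 in Gzmc. Among those without, the ratios were 1.83, 1.31 and 1.59. Gzma was lower in ENZ among cells without Klrg1, at 0.718 times, and differed little among those with it, at 0.947 times.

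Itga1, an integrin of tissue-resident NK cells and related innate lymphoid cells, was found in 44 control and 23 ENZ NK cells. In the control library the cells with Itga1 had less Gzmb (140 against 489 CPM) and less Gzmc (1475 against 3828 CPM) than the 405 without. In the ENZ library the cells with Itga1 had more of both, 1449 against 544 CPM and 8392 against 4228 CPM. Gzma was lower in Itga1 cells of both libraries, at 0.308 and 0.378 times, as was Nkg7 at 0.318 and 0.400 times. Whether the 2 libraries differ in this was not tested. Among cells with Itga1, ENZ stood over control by 10.3 times in Gzmb, 5.69 in Gzmc and 8.89 in Prf1. Among those without, which were most of the class, Gzmb and Gzmc differed little, at 1.11 and 1.10 times, while Prf1 was 1.94 times higher. A single cell held 286 of the 605 Gzmb UMIs of the ENZ cells with Itga1, and without it and the top control cell, a comparison chosen after seeing the data, their Gzmb stood at 852 CPM in ENZ and 102.9 CPM in control. Cells with Itga1 were deeper, with medians of 12083.5 against 5125 UMIs in control and 14212 against 5196.5 in ENZ.

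NK cells with a UMI of Mki67 or Top2a, genes of dividing cells, had less Nkg7 than the rest (0.471 times in control, 0.536 times in ENZ). They were 43.9% of control and 42.6% of ENZ NK cells, or 16.5% and 12.4% after thinning, with medians of 9686 against 3853 and 8929.5 against 4470 UMIs. Their Prf1 was 0.696 times that of other cells in control and 1.14 times in ENZ, and their Gzmb 0.600 and 1.22 times. NK cells with Cd27, a receptor of less mature NK cells, had more Prf1 in both libraries (2.04 and 1.64 times) and more Gzmb (1.48 and 1.78 times). Their Gzma was 1.28 times that of the other cells in control and 0.302 times in ENZ, with 37 and 29 cells. Cells with Cd27 were deeper as well, with medians of 7357 against 5208.5 UMIs in control and 7405 against 5247.5 in ENZ.

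CD8 T cells made Gzma, Gzmb, Gzmk and Nkg7 and had little of the granzyme C to G group. Of the 4 genes with at least 50 CPM, Gzmb and Gzmk were at least 1.5 times higher in ENZ and none lower, that is, 2 of 4. Among all 3445 genes at that level in these cells, 13.3% were at least 1.5 times higher and 10.4% at least 1.5 times lower. The median log2 ratio was 0.72 against 0.06 over all these genes. Gzmb stood at 171 CPM (152 to 193) in control and 335 CPM (306 to 366) in ENZ, a ratio of 1.95. Gzmk, typical of T cells that are not fully cytotoxic, stood at 32.9 CPM (24.7 to 43.0) and 76.0 CPM (62.6 to 91.3), a ratio of 2.31.

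Gzma was level between the libraries in CD8 T cells, at 254 and 251 CPM (ratio 0.989, 0.858 to 1.14), and Nkg7 was 1.39 times higher in ENZ (346 and 481 CPM). The further T cell markers of this class were together 1.38 times higher, as given above. Prf1 was low, with 26 UMIs in control and 31 in ENZ (15.9 and 20.8 CPM). Gzmc had 26 UMIs and 72 UMIs, of which 10 and 45 lay in a single cell of each library. Gzmd, Gzme, Gzmf and Gzmg had 1 to 5 UMIs each. By the mean of the CPM of each cell, Gzma was lower in ENZ (log2 ratio -0.87) and Gzmb higher by 0.35.

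At 1000 UMIs per cell the interval of the difference in the share of CD8 T cells with a UMI included 0 for each of the 10 genes. Thinned so, Gzmb was seen in 18.8% of control and 23.8% of ENZ cells (difference interval -4.81 to 14.3 percentage points), Gzma in 25.0% and 17.8% (-17.1 to 2.42) and Nkg7 in 39.8% and 44.9% (-6.59 to 16.4). Gzmk was seen in 8.59% and 7.03% (-8.61 to 4.75) at 1000 UMIs, and in 8.73% and 17.6% when cells were thinned to 2000 UMIs instead, where the difference turned to 8.85 percentage points (0.620 to 16.5). For the other 9 genes the interval at 2000 UMIs included 0.

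Myeloid markers summed to 1199 CPM in control and 771 CPM in ENZ CD8 T cells, and epithelial markers to 281 and 182 CPM. When cells with UMIs of another lineage were left out (98 control and 161 ENZ cells remained), the log2 ratio of Gzmb was 0.40 in place of 0.97, that of Gzmk 0.78 in place of 1.21 and that of Gzma -0.69 in place of -0.02. Among the 21 control and 30 ENZ cells that met the rule after thinning, Gzmb and Gzmk were lower in ENZ (-0.35 and -0.40).

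CD8 T cells with Pdcd1, the checkpoint receptor PD-1, had less Gzma, 110 against 388 CPM in control and 70.2 against 400 CPM in ENZ. Their Gzmb was 0.903 times that of cells without Pdcd1 in control and 0.458 times in ENZ, and their Nkg7 1.32 and 0.903 times. CD8 T cells with a UMI of Mki67 or Top2a had less Gzma (0.339 and 0.585 times), less Gzmk (0.314 and 0.527 times) and less Nkg7 (0.456 and 0.527 times) than those without Mki67 or Top2a UMIs. Gzmb was 0.391 times as high in the former in control and 1.21 times in ENZ. Cells with Pdcd1 were deeper, with medians of 9050 against 5300.5 UMIs in control and 6363 against 4874 in ENZ. Those with Mki67 or Top2a were deeper too, at 9346 against 4162 and 7564 against 3949 UMIs.

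Regulatory T cells made Gzmb and Nkg7 and no detectable Prf1 or Gzmk. Gzmb stood at 236 CPM (201 to 277) in control and 328 CPM (287 to 373) in ENZ, a ratio of 1.39 (1.13 to 1.71). The further markers of this class were together 1.42 times higher, as given above. Nkg7 was lower in ENZ, at 181 CPM (150 to 217) and 78.4 CPM (59.2 to 102), a ratio of 0.433. Prf1 and Gzmk had 0 UMIs in both libraries, which allows up to 3 counts in each (4.61 CPM in control). Of the 2 genes with at least 50 CPM, 0 were at least 1.5 times higher and 1 at least 1.5 times lower, where 13.1% and 10.3% of all 3439 genes at that level were. The median log2 ratio was -0.37 against 0.06.

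Gzmb was seen in 24.6% of control and 29.8% of ENZ regulatory T cells after thinning (difference interval -10.7 to 19.9 percentage points). Nkg7 was seen in 6 of 57 and 11 of 94 cells after thinning but in 45.6% and 21.3% before. The control cells were deeper, with a median of 7893 UMIs against 4583 in ENZ, and held more myeloid markers, 1245 against 242 CPM. Without the cells with UMIs of another lineage (41 control and 83 ENZ cells remained), the log2 ratio of Gzmb was -0.04 in place of 0.47, while that of Nkg7 was -1.53. Under the other rules for the class the Gzmb log2 ratio was -0.22 with each marker minimum raised (14 and 31 cells) and -1.45 when the rule was applied after thinning (10 and 8 cells).

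The make-up of the granzyme UMIs set the 3 classes apart. In NK cells Gzmc took 50.2% of all granzyme UMIs in control and 45.4% in ENZ, and Gzma 26.4% and 11.9%. Gzmd took 8.85% and 14.4%, Gzmf 1.16% and 8.18%, and Gzmg 3.28% and 8.33%. CD8 T cells held Gzma (52.9% and 35.0%), Gzmb (35.7% and 46.5%) and Gzmk (6.85% and 10.6%), and in regulatory T cells Gzmb was 91.7% and 93.6%. UMIs count RNA molecules at the 3′ end and do not grow with transcript length, though capture may differ between genes.

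**Figure D5:**
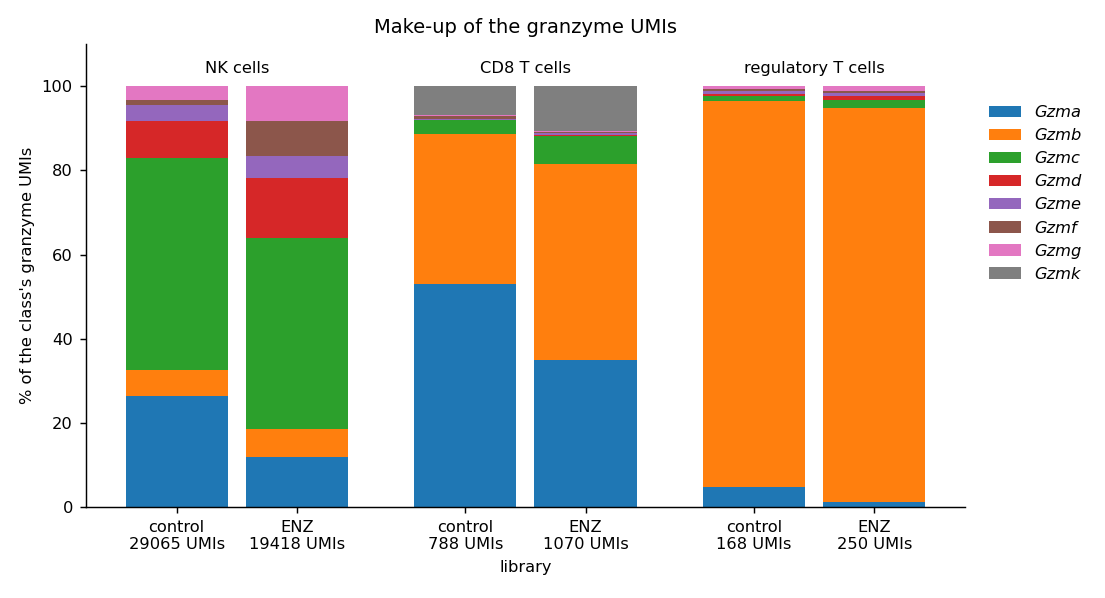
Percentage of the granzyme UMIs of each class that belonged to each of the 8 granzyme genes, in the control and ENZ library, with the number of granzyme UMIs under each bar. NK cells are mostly Gzmc (50.2% and 45.4%), CD8 T cells mostly Gzma and Gzmb, and regulatory T cells mostly Gzmb (91.7% and 93.6%).

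The number of Gzmb UMIs per Prf1 UMI differed between the classes. NK cells had 1.85 Gzmb UMIs per Prf1 UMI in control (1817 and 981 UMIs) and 1.38 in ENZ (1288 and 934 UMIs). CD8 T cells had 10.8 (7.22 to 16.8) and 16.1 (11.2 to 23.9). Regulatory T cells had 154 Gzmb UMIs in control and 234 in ENZ against none of Prf1, so at least 51.3 and 78.0 per Prf1 UMI when set against 3 counts. T cells without Cd4, Cd8 or Foxp3 UMIs, which share cells with the NK class, had 3.24 and 1.62, T cells with NK receptors 2.11 and 2.69, and CD4 T cells without Foxp3 15.1 and 17.5. Mast cells and basophils, 25 control and 11 ENZ cells, had 71 Gzmb UMIs against 1 of Prf1 in control and 50 against 0 in ENZ.

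Other classes with granzymes were few. In mast cells and basophils Gzmb stood at 301 CPM (235 to 380) in control and 299 CPM (222 to 394) in ENZ, with no UMI of Gzmc, Gzme, Gzmf or Gzmk in either library. T cells without Cd4, Cd8 or Foxp3 UMIs (439 control and 355 ENZ cells) had Gzmc at 1181 and 1109 CPM and Gzmf at 9.48 and 343 CPM. Of their 801 ENZ Gzmf UMIs, 709 lay in the single cell that also led the NK class, and the classes shared 35 control and 16 ENZ cells. In them 95.2% and 95.1% of the granzyme UMIs lay in the cells that also had an NK marker UMI, which were 30.8% and 14.6% of the class. T cells with NK receptors (58 and 27 cells) had less of Gzma to Gzme and of Prf1 in ENZ. Gzmc stood at 2798 and 397 CPM (0.142 times) and Prf1 at 147 and 64.2 CPM (0.437 times). Single control cells held 788 of 1675 Gzmc, 270 of 332 Gzmd, 201 of 234 Gzme and 46 of 88 Prf1 UMIs of this class. A single ENZ cell held 72 of 99 Gzmc UMIs, so these ratios rest on few cells. Gzmf had 12 and 280 UMIs, 279 of the latter in a single cell. Whether this class and NK cells differ between the libraries was not tested. CD4 T cells without Foxp3 had Gzmb at 115 CPM in control and 175 CPM in ENZ. Of their 288 ENZ Gzmf UMIs, 279 lay in a single cell, the same cell that led the T cells with NK receptors.

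The other genes of granule loading and release were read from a list of 15. Of these 15 granule genes, 9 had at least 50 CPM in NK cells, of which 1 was at least 1.5 times higher and 0 lower (4.15% and 4.42% of all genes), with a median log2 ratio of 0.21 against 0.05 over all genes. That gene was Rab27a, the GTPase that docks granules at the membrane, at 54.9 CPM in control and 114 CPM in ENZ (2.08 times). Srgn, the proteoglycan that holds granzymes in the granule, stood at 882 and 1018 CPM, and Ctsc, the protease that activates granzymes, was 1.29 times higher. Serpinb9, which shields the cell from its own Gzmb, stood at 197 and 242 CPM.

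In CD8 T cells 4 of 10 tested granule genes were at least 1.5 times higher in ENZ and 0 lower, against 13.3% and 10.4% of all genes, namely Serpinb6b (1.79 times), Serpinb9 (1.72), Rab27a (1.64) and the docking gene Stx11 (1.53), with a median log2 ratio of 0.51 against 0.06 over all genes. In regulatory T cells 1 of 7 was higher, Stx11 at 1.53 times, a share near the 13.1% of all genes. Against 10.3% of all genes, 2 were lower, Ctsc at 203 and 65.8 CPM (0.325 times) and Lamp1 at 143 and 92.4 CPM (0.647 times), and the median was 0.38 against 0.06. Ctsc and Lamp1 are also active in myeloid cells, whose markers were lower in the ENZ regulatory T cells as given above, and their part in these values was not tested.

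Among 7 regulators of cytotoxic genes, 2 of 5 tested were at least 1.5 times higher in ENZ NK cells and 0 lower, where 4.15% and 4.42% of all genes were, with a median log2 ratio of 0.52 against 0.05. Id2, an inhibitor of E proteins needed for NK cells, stood at 160 and 368 CPM (2.30 times), and Eomes, a T-box factor that drives Prf1, at 58.1 and 95.7 CPM (1.65 times). Runx3 stood at 481 and 593 CPM and Tbx21, the other T-box factor, was 1.44 times higher. In CD8 T cells 3 of 5 were higher and 0 lower (13.3% and 10.4% of all genes), Id2 at 2.17, Eomes at 1.59 and Runx3 at 1.53 times, with a median of 0.61 against 0.06. In regulatory T cells 1 of 4 was higher, Id2 at 1.80 times, and 1 was lower, Runx3 at 0.557 times (13.1% and 10.3% of all genes), with a median of 0.24 against 0.06.

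Of 9 other effector molecules, 4 had at least 50 CPM in NK cells, of which 0 were at least 1.5 times higher and 1 lower in ENZ (4.15% and 4.42% of all genes), with a median log2 ratio of -0.46 against 0.05. Ccl5, a chemokine stored by cytotoxic cells, went from 1183 CPM in control to 696 CPM in ENZ (0.589 times), Ccl4 stood at 94.9 and 63.4 CPM, and Ifng, the interferon of NK and T cells, at 73.7 and 74.2 CPM. In CD8 T cells 3 of 4 were higher in ENZ and 0 lower (13.3% and 10.4% of all genes), Ccl4 at 3.31, Ccl5 at 1.84 and Ifng at 1.56 times, with a median of 0.76 against 0.06. In regulatory T cells 0 of 2 were higher and 1 was lower, Ccl4 at 0.436 times (13.1% and 10.3% of all genes), with a median of -0.86 against 0.06.

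Over the 15 classes of both libraries (30 profiles, 5994 genes), the genes with the pattern most like that of Prf1 by Pearson's r of log2(CPM + 10) were the NK receptor genes Klre1 (0.94), Klra7 (0.93) and Klra8 (0.93). For Gzmc they were Klre1 (0.93), Klra8 (0.91) and Klra9 (0.91), and for Gzma the chemokine Xcl1 (0.95), Ctsw (0.93) and Samd3 (0.93). For Gzmb, which is shared by T cells, NK cells and mast cells, they included Ctla2a (0.95) and Cst7 (0.94). Klre1 was used to draw the NK class, and the classes overlap and come from 2 libraries, so these values only describe the profiles.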

How the data were processed

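Droplet single-cell RNA-seq was done on tumor cells of 1 control and 1 ENZ mouse. What the authors deposited for each library is a matrix of unnormalized UMI counts, whose file header names Cell Ranger 7.2.0 while the submitters' processing notes name Cell Ranger 2.1.1 and mm10. How intronic reads were treated is not given in the sources used here.

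From these counts, classes were drawn by marker UMIs, and UMIs were summed per class and library (Python 3.11.15, scipy 1.17.1). Doublets were left in and removed only as an alternative (scrublet in scanpy 1.11.5). Ratios were read against all genes with at least 50 CPM over both libraries in the class. Cells are not replicates, so no p-value was computed. For shares, cells were thinned to 1000 UMIs with a fixed seed. The code was tested on simulated data. All 10 members were described, together with lists of 15 granule genes, 7 regulators and 9 other effector molecules and, for Prf1, Gzmb, Gzmc and Gzma, the 3 genes of most similar profile. A few results are not reported here. The members, lists and classes were chosen with earlier results of these data known.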

Additional observations from a re-analysis of the deposited data

Results flagged for a closer look

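In barcodes with 100 UMIs or fewer, which hold free RNA of the suspension and lie outside the cell classes, Gzmg was 1.85 times higher in the ENZ library than in the control library (321 and 183 UMIs, 88.5 and 47.8 CPM), and Prf1 was 1.68 times higher (59 and 37 UMIs, 16.3 and 9.66 CPM). Over all cells the Gzmg ratio was 1.67 and that of Prf1 0.916.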

How the results depend on the processing

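No paired analysis was possible because only 1 library stands for control and 1 for ENZ. The summed level of the 10 genes in NK cells had a log2 ratio of 0.80 and was higher in ENZ in 11 of 12 settings. It was 0.87 with each marker minimum raised, 0.60 without cells carrying UMIs of another lineage, 0.94 without scrublet doublets, 0.23 by the mean of the CPM of each cell, 0.75 with median-of-ratios scaling and -0.00523 when classes were drawn after thinning. Chosen after seeing the data, it was 0.83 without NK cells with Trac UMIs (421 and 163 cells remained) and 0.69 without the top cell of each library. In CD8 T cells the sum stood at 0.54, and at -0.59 with classes drawn after thinning, -0.0653 without other lineages, 0.73 without scrublet doublets, -0.0584 by the mean of cells and 0.67 with free RNA subtracted. In regulatory T cells it stood at -0.04, and at -0.61 with raised minima, -0.95 after thinning and -0.44 without other lineages. Of the genes past 1.5-fold, those that turned did so with classes drawn after thinning, Gzmc (-0.10) and Gzmg (-1.06) in NK cells and Gzmb (-0.35) and Gzmk (-0.40) in CD8 T cells. The cause was not tested. Fewer cells met the rules in that setting, 92 and 24 NK cells and 21 and 30 CD8 T cells. Nkg7 in regulatory T cells and Gzmd, Gzme and Prf1 in NK cells stayed past 1.5-fold in all 12 of these settings, and Gzmf in all 11 that gave a value. Scaling moved the median gene by 0.05 to 0.06. The automatic scrublet threshold of the control library marked 0% of its cells, so that of the ENZ library was used for both and marked 2.41% and 2.84%. Among the 3 main classes, depth limits CD8 T cells and regulatory T cells most, where Gzmd to Gzmg had 1 to 5 UMIs each. Among the genes within 1.5-fold, Gzmb in regulatory T cells and Gzma and Nkg7 in CD8 T cells had the other sign under 2 or 3 of the 12 settings, and Prf1 in CD8 T cells under 1 of 11.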
